A study of Homo sapiens with 40 samples.

Results

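SEES3 cells with a double knockout (DKO) were set against the wild type (WT), both kept as undifferentiated pluripotent cultures. SEES3 is an established line of human embryonic stem cells. In DKO both paralogs named in the design are knocked out, UTX (gene symbol KDM6A, on the X chromosome) and UTY (on the Y chromosome), and WT carries neither knockout. The comparison consists of the columns of the deposited count table that holds these genotypes, 2 DKO and 2 WT libraries, which makes 4 of the 40 libraries of the series. Other undifferentiated SEES3 groups of 2 libraries each stand beside them: UTXKO, which shares the WT libraries, UTYKO, and UTYKO_ctrl, the control of UTYKO. DKO and WT were also measured in cultures named Endo, Meso and Ecto for the germ layers, with 2 libraries per genotype and layer. All of these libraries were made from polyA RNA with a kit that keeps the strand. No treatment is given for any of them, and the labels leave unsaid where the knockout lesions lie, how DKO was derived and whether a genotype is 1 clone. They also leave unsaid whether the 2 libraries of a group came from separate cultures. Each p-value therefore reflects only how far libraries of a group lie apart, which may be technical variation.

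UTX is a histone demethylase that takes repressive methyl groups off a lysine of histone H3, the mark that Polycomb repressive complex PRC2 places on silent developmental genes. It is also a subunit of the MLL3/4 complexes, which act at enhancers, and it can do part of its work without its enzyme activity. UTY has a similar domain plan with weak demethylase activity, and KDM6B is the autosomal member of the family. Human embryonic stem cells resemble the epiblast around implantation: Nodal, Activin and FGF signals hold them in the pluripotent state, and lower Nodal and BMP signalling lets such cells take a neural course.

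The DKO transcriptome differed from WT across much of the genome, and rises and falls were even in number with the TMM scaling used here. That balance depends on the scaling: with library totals alone 57.3% of the called genes were higher in DKO. Of 60651 annotated genes, 14637 had enough counts to be tested, and 6866 of these (46.9%) passed edgeR's quasi-likelihood test at a Benjamini-Hochberg adjusted p under 0.05. Genes past this threshold are called rising or falling below. A gene near 0 in WT had enough counts only through DKO, and a gene near 0 in DKO only through WT. In DKO 3435 genes were higher (23.5%) and 3431 lower (23.4%). A change of at least 2-fold was seen in 873 of the rising (5.96%) and 955 of the falling genes (6.52%). At 4-fold or more 317 genes rose and 214 fell, and at 16-fold or more 108 rose and 32 fell. The 2-fold risers had a median of 1.68 CPM (counts per 1e6 counts of a library) in WT and 7.07 CPM in DKO, and 319 of the 873 were under 1 CPM in WT. The 2-fold fallers went from a median of 7.64 to 2.35 CPM, and 267 of the 955 were under 1 CPM in DKO. The library values of DKO and WT did not overlap for 10626 genes (72.6%). DESeq2 called 3701 genes on the same counts, and a test against a 2-fold change called 763 (5.21%).

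Library totals of the 10 undifferentiated libraries ran from 5781357 to 14973722 counts. Reads of the mitochondrial chromosome took 6.27% and 8.06% of WT and 6.01% and 5.85% of DKO counts. UTYKO_ctrl, the other control, served as a check on the WT libraries: 3165 genes (21.6% of those tested) were called in the same direction against both controls. Against UTYKO_ctrl alone 4680 of 15191 genes (30.8%) were called, 2356 higher in DKO (15.5%) and 2324 lower (15.3%). That test took its spread from all 10 undifferentiated libraries. In the same fit DKO against WT called 4745 genes, 2503 higher and 2242 lower. A change called against WT but not against UTYKO_ctrl can therefore differ by the fit as well as by the control. In bulk RNA fewer cells of a type and less RNA per cell cannot be told apart, so the marker genes of several cell types were summed. The 12 markers of undifferentiated cells summed to 8748 and 8638 CPM in WT and to 7779 and 7762 CPM in DKO. Neural progenitor markers summed to 505.3 and 532.7 CPM in WT and to 746.2 and 715.8 CPM in DKO, with 4 of 6 called higher and 1 lower; the 1 lower was lost whichever library was left out. Neuron markers summed to 83.9 and 96.8 CPM in WT and 108.5 and 102.4 CPM in DKO, with ELAVL4 close to 0; 2 of 4 tested were called higher, 1 without WT replicate 1, 3 without WT replicate 2 and none without DKO replicate 2. The 8 fibroblast markers summed to 312.0 and 324.2 CPM in WT and 253.2 and 267.7 CPM in DKO; COL3A1, LUM and DCN were at 0 in WT and rose, while COL1A1, COL1A2 and THY1 fell. Endoderm markers summed to between 2.33 and 5.97 CPM in the 4 libraries, with SOX17 at 0, and mesoderm markers summed to 18.5 and 14.4 CPM in WT and 2.62 and 3.36 CPM in DKO. The part of any change in cell makeup in the results below was not tested.

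**Figure D1:**
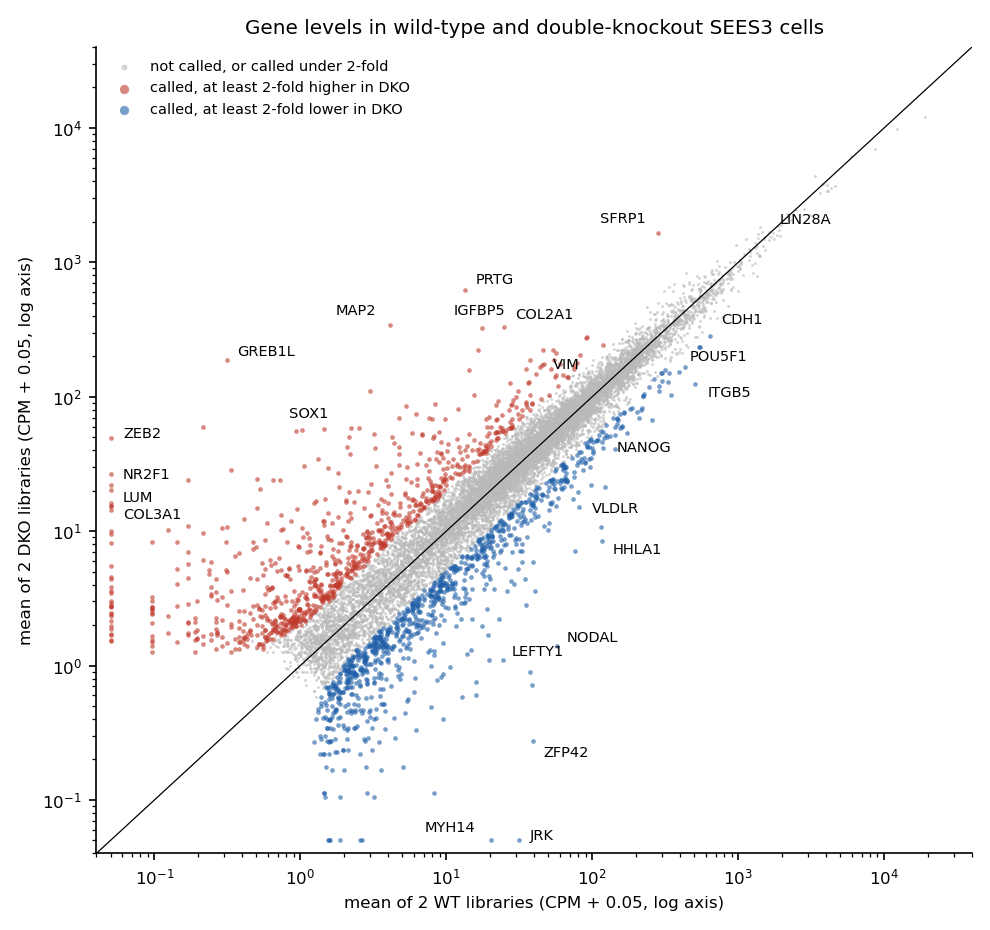
Mean level of each tested gene in WT (horizontal axis) and DKO (vertical axis), both as CPM plus 0.05 on log scales, 2 libraries per group, with the called genes of at least 2-fold coloured and selected genes named. The 873 rising and 955 falling genes lie above and below the diagonal. Many of the risers sit at the low end of the WT axis, and many of the fallers at the low end of the DKO axis.

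The targeted genes kept their RNA. UTX (KDM6A, GRCh38 chrX:44873177-45112602) had 96.3 and 86.9 CPM in WT and 76.7 and 80.6 CPM in DKO, and UTXKO lay at 88.3 and 106 CPM. The groups did not overlap, but the fall (log2 fold change -0.24 ± 0.08 (SE), edgeR adjusted p = 0.014) was lost without WT replicate 1 or without DKO replicate 1. UTY (chrY:13248379-13480673) went from 35.7 and 35.3 CPM in WT to 55.9 and 57.2 CPM in DKO, where DKO stood above WT in both libraries (log2 fold change 0.65 ± 0.09 (SE), edgeR adjusted p = 3.10e-06). UTYKO had 59.8 and 52.1 CPM, against 34.5 and 25.1 CPM in UTYKO_ctrl. A small lesion can leave the transcript in place, so these counts do not check the genotypes. KDM6B, the third family member, had 28.4 and 25 CPM in WT and 34.2 and 33.5 CPM in DKO, a log2 rise of 0.33 ± 0.11 that was lost without WT replicate 2 or DKO replicate 1.

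Among the Polycomb genes the largest changes were in accessory subunits. In PRC2, 3 of 12 tested genes rose and 3 fell; without DKO replicate 1 none of the 3 falls passed, and 1 did without DKO replicate 2. EZH2, the catalytic methyltransferase, rose from 67.2 and 71.5 CPM in WT to 129.9 and 143 CPM in DKO (log2 fold change 0.94 ± 0.07 (SE), edgeR adjusted p = 7.04e-10). EPOP, which links PRC2 to elongin, rose from 25.5 and 23 CPM in WT to 60.04 and 51.7 CPM in DKO. SUZ12 and EED, the other core subunits, had log2 fold changes of 0.13 ± 0.08 and 0.07 ± 0.10 and did not pass. In PRC1, 11 of 21 tested genes rose and 4 fell, with 6 rises left without DKO replicate 1 and 1 fall left without either DKO library. YAF2, a subunit of the variant PRC1 complexes, rose from 0.874 and 0.744 CPM in WT to 11 and 12.7 CPM in DKO (log2 fold change 3.84 ± 0.29 (SE), edgeR adjusted p = 3.15e-10), and its paralog RYBP did not pass (edgeR adjusted p = 0.99). PHC2, the polyhomeotic subunit, rose from 23.6 and 24.2 CPM in WT to 73.9 and 72.3 CPM in DKO. Of the 9 MLL3/4 complex genes, NCOA6 had the largest change, from 24.3 and 19.9 CPM in WT to 51.3 and 47.8 CPM in DKO, and the catalytic subunits KMT2C and KMT2D did not pass at -0.17 ± 0.08 and 0.07 ± 0.07. Against both controls 6 of the PRC1 rises and 1 of the falls held, and in PRC2 2 rises and no fall. Among DNA methylation genes, 5 of 8 rose and 1 fell, of which 1 rise and no fall held against both controls. UHRF1, which guides the maintenance methyltransferase, rose from 19.8 and 20.4 CPM in WT to 62.5 and 57.1 CPM in DKO, but UTYKO_ctrl lay at 37.5 and 61.2 CPM and the difference from it did not pass. DNMT3B, the de novo enzyme of pluripotent cells, did not pass at -0.02 ± 0.06.

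In the Nodal and Activin pathway the ligand and its feedback targets fell most. Of 20 tested genes of 24 listed, 11 fell and 4 rose, with a median log2 fold change of -0.55 against 0.00 over all genes tested. NODAL (chr10:70432315-70447951), the ligand, went from 57.5 and 56.3 CPM in WT to 1.96 and 0.746 CPM in DKO. Both DKO libraries were far below both WT libraries (log2 fold change -5.36 ± 0.19 (SE), edgeR adjusted p = 6.27e-16). UTXKO (55.6 and 57.5 CPM) and UTYKO_ctrl (51.8 and 56.6 CPM) lay near WT, and UTYKO had 81.3 and 90.1 CPM. GDF3, a related ligand, fell from 25.6 and 28.2 CPM in WT to 13.3 and 12.2 CPM in DKO. INHBB, an Activin subunit, was the 1 ligand that rose, from 1.02 and 0.279 CPM in WT to 2.94 and 3.11 CPM in DKO. Among the receptors, TDGF1, the co-receptor Cripto that Nodal needs, fell from 417 and 452 CPM in WT to 167 and 164 CPM in DKO (log2 fold change -1.42 ± 0.07 (SE), edgeR adjusted p = 7.08e-14). The type II receptors ACVR2A and ACVR2B had small log2 fold changes, 0.50 ± 0.13 for ACVR2A, which passed, and 0.01 ± 0.06 for ACVR2B, which did not.

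The antagonists split. LEFTY1 and LEFTY2, inhibitors that Nodal itself switches on, fell from 22.9 and 26.2 CPM in WT to 0.981 and 1.12 CPM in DKO and from 11.9 and 11.4 CPM in WT to 2.29 and 2.49 CPM in DKO. In both genes every DKO library was under every library of the other 4 groups, and the log2 fold changes were -4.57 ± 0.23 (edgeR adjusted p = 2.32e-13) and -2.31 ± 0.22 (edgeR adjusted p = 1.98e-08). FST, follistatin, which binds Activin, rose from 11.8 and 12.2 CPM in WT to 79.3 and 82.5 CPM in DKO (log2 fold change 2.72 ± 0.10 (SE), edgeR adjusted p = 1.93e-15). Downstream, FOXH1, the DNA-binding partner of the SMADs, fell from 79.4 and 77 CPM in WT to 37.8 and 35.8 CPM in DKO, and the pathway's negative regulators SMAD7 and SKIL fell with log2 fold changes of -1.01 ± 0.09 and -0.91 ± 0.07. SMAD2 and SMAD3, the transducers themselves, did not pass at -0.15 ± 0.07 and -0.03 ± 0.08. MIXL1, a target in the primitive streak list, fell as well, from 15.9 and 11.7 CPM in WT to 1.2 and 1.12 CPM in DKO (log2 fold change -3.55 ± 0.28 (SE), edgeR adjusted p = 4.95e-10).

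In the core pluripotency list 14 of 26 tested genes fell, 7 of them by at least 2-fold, and 4 rose. Its 11 factors gave 5 falls and 3 rises (median log2 fold change -0.11), and its 15 markers gave 9 falls and 1 rise, which was lost without WT replicate 2 and without either DKO library. POU5F1 fell from 617 and 509.5 CPM in WT to 304 and 307 CPM in DKO and NANOG from 119 and 128 CPM in WT to 53 and 50.5 CPM in DKO, with log2 fold changes of -0.90 ± 0.07 (edgeR adjusted p = 1.22e-09) and -1.29 ± 0.08 (edgeR adjusted p = 6.43e-12). The DKO libraries were below the WT libraries for both genes. SOX2, shared between pluripotent and neural cells, rose from 389.8 and 344 CPM in WT to 472 and 464 CPM in DKO, and LIN28A and SALL4 did not pass at 0.02 ± 0.06 and 0.06 ± 0.07. DPPA2, a chromatin factor of pluripotent cells, fell from 27.5 and 34 CPM in WT to 5.67 and 4.73 CPM in DKO. POU5F1, NANOG, TDGF1 and other genes of these cells have near-identical processed pseudogenes, and how reads shared with such copies were counted is not given in the sources used here.

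Genes of the naive state all moved down or did not pass: 8 of 9 tested genes of 15 listed fell (median -1.41). TFAP2C, KLF4 and TFCP2L1, regulators of that state, went from 76.8 and 73.2 CPM in WT to 26.6 and 28.4 CPM in DKO, from 7.87 and 7.72 CPM in WT to 2.94 and 2.98 CPM in DKO and from 20.4 and 19.6 CPM in WT to 6.97 and 7.84 CPM in DKO. Without WT replicate 2 or DKO replicate 2, 5 of the 8 falls passed. FGF4, a growth factor that naive cells make, fell from 19.5 and 16.8 CPM in WT to 3.16 and 4.11 CPM in DKO (log2 fold change -2.34 ± 0.19 (SE), edgeR adjusted p = 1.25e-09). ZFP42, a classical stem cell marker, went from 42.8 and 35.5 CPM in WT to 0.327 and 0.124 CPM in DKO, and it was also near 0 in UTXKO (0 and 0.159 CPM). The 2 controls were far apart for this gene, with 207 and 207 CPM in UTYKO_ctrl. Of 16 tested primed-state genes 8 rose and 5 fell, 4 of the rises and 1 of the falls by at least 2-fold. Their median log2 fold change was 0.17 and the lowest -1.53, so the list did not move one way. OTX2, which marks the primed epiblast and the forebrain, rose from 35.7 and 29.9 CPM in WT to 83.5 and 76.4 CPM in DKO, and DUSP6, a feedback phosphatase of FGF signalling, rose from 74.3 and 83.4 CPM in WT to 178 and 180.0 CPM in DKO. Among 10 tested non-coding and related transcripts of pluripotent cells 8 fell and 1 rose. LINC-ROR fell from 1.75 and 2.14 CPM in WT to 0.109 and 0.124 CPM in DKO and HHLA1 from 113 and 119 CPM in WT to 10.1 and 6.59 CPM in DKO (log2 fold change -3.80 ± 0.12 (SE), edgeR adjusted p = 1.35e-16). The 1 rise, MIR302CHG, was lost without WT replicate 2 or without DKO replicate 2.

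BMP genes moved in both directions, 13 up and 9 down of 30 tested. Among ligands, BMP2 rose from 4.51 and 3.35 CPM in WT to 13.6 and 18.5 CPM in DKO. BMP5 was at 0 counts in both WT libraries and reached 7.85 and 8.33 CPM in DKO, at least 47.4-fold higher when WT is set to the floor of 3 counts over the group. The antagonist GREM1, gremlin, rose from 0.146 and 0.186 CPM in WT to 60.04 and 59.7 CPM in DKO (log2 fold change 8.32 ± 0.24 (SE), edgeR adjusted p = 1.95e-17), while BAMBI, a decoy receptor, fell from 34.4 and 24.7 CPM in WT to 7.74 and 9.2 CPM in DKO. Targets split too. ID4 rose from 4.95 and 4.37 CPM in WT to 67.2 and 71.5 CPM in DKO and ID3 from 36.1 and 34.5 CPM in WT to 90.5 and 87.1 CPM in DKO, whereas ID1 fell from 76.8 and 78.5 CPM in WT to 41.4 and 45 CPM in DKO; ID3 stood at 57.7 and 81.2 CPM in UTYKO_ctrl, and its difference from that control did not pass.

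In the WNT list 19 of 38 tested genes rose and 10 fell, and 18 of the rises and 3 of the falls held against both controls. The rises were mostly ligands (6 of 8) and receptors (10 of 15). WNT4 rose from 0.437 and 0.93 CPM in WT to 12.5 and 13.7 CPM in DKO, and WNT3, the ligand that starts the primitive streak, fell from 20.5 and 18.7 CPM in WT to 5.23 and 3.98 CPM in DKO (log2 fold change -2.09 ± 0.18 (SE), edgeR adjusted p = 2.01e-09). Of the Frizzled receptors, FZD1 rose from 2.91 and 3.63 CPM in WT to 30.9 and 30.2 CPM in DKO and FZD7 from 94.8 and 86.6 CPM in WT to 267 and 284 CPM in DKO, while FZD5 fell from 182 and 163 CPM in WT to 88.3 and 88.4 CPM in DKO. The secreted antagonists SFRP1 and FRZB rose steeply: SFRP1 from 292 and 274 CPM in WT to 1590.0 and 1695 CPM in DKO (log2 fold change 2.51 ± 0.07 (SE), edgeR adjusted p = 7.06e-18) and FRZB from 2.48 and 1.86 CPM in WT to 54.7 and 62.1 CPM in DKO (log2 fold change 4.76 ± 0.16 (SE), edgeR adjusted p = 4.40e-16). SFRP1 was the gene that gained most CPM of all called genes. AXIN2, the standard transcriptional readout of canonical WNT signalling, did not pass at 0.04 ± 0.11. LEF1, which is both effector and target, rose from 1.6 and 1.4 CPM in WT to 13.2 and 14.2 CPM in DKO.

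Against WT the Hedgehog genes of the receiving cell that passed moved one way. All 6 tested receptors and co-receptors rose, as did 2 of 3 targets, and none of the 3 ligands had enough counts to test. Of these rises 5 of receptors and 1 of a target held against both controls. Against UTYKO_ctrl 6 of 9 genes of the list rose and 1 fell. The co-receptor BOC rose from 9.32 and 7.25 CPM in WT to 88.6 and 88.3 CPM in DKO (log2 fold change 3.42 ± 0.11 (SE), edgeR adjusted p = 2.72e-16), and its relatives GAS1 and CDON rose from 8.88 and 6.79 CPM in WT to 23.8 and 20.9 CPM in DKO and from 42.8 and 38.6 CPM in WT to 68.5 and 75.1 CPM in DKO. GLI3, chiefly a repressor when no ligand is present, rose from 66.3 and 67 CPM in WT to 141 and 139 CPM in DKO. GLI1, the usual readout of active signalling, did not pass at -0.27 ± 0.14. In the FGF list 12 of 28 tested genes rose and 11 fell. The main ligand of these cells, FGF2, fell from 126 and 112 CPM in WT to 74.8 and 71.8 CPM in DKO. Its receptor FGFR1 rose from 468 and 449.6 CPM in WT to 689 and 689 CPM in DKO. The feedback phosphatases DUSP4 and DUSP5 moved apart: DUSP4 from 5.24 and 4.09 CPM in WT to 40.6 and 34.6 CPM in DKO and DUSP5 from 42.5 and 42.9 CPM in WT to 13.3 and 12.3 CPM in DKO.

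Notch genes mostly did not pass: 5 of 21 tested rose and 1 fell, with 2 falls without WT replicate 1 and 3 without WT replicate 2. The share of Notch genes called, 28.6%, was below the 46.9% of all genes tested, and the share that rose was near the 23.5% of all genes. LFNG, a glycosyltransferase that tunes the receptor, rose from 8.16 and 6.7 CPM in WT to 25.5 and 23.9 CPM in DKO, and HEY2, a target, fell from 35.1 and 33.9 CPM in WT to 13.5 and 10.9 CPM in DKO. In the retinoic acid list 7 of 15 tested genes rose and 5 fell. The orphan nuclear receptors NR2F1 and NR2F2, which respond to retinoic acid and pattern the brain, rose from 0 and 0 CPM to 24.2 and 28.6 CPM and from 0.146 and 0 CPM in WT to 9.81 and 10.6 CPM in DKO. For NR2F1 that is at least 154-fold over a floor of 3 counts in WT. CYP26A1, which breaks retinoic acid down, rose from 5.39 and 4.09 CPM in WT to 15 and 17.4 CPM in DKO, and ALDH1A3, which makes it, fell from 9.32 and 7.63 CPM in WT to 2.94 and 3.11 CPM in DKO. Among TGF-beta, IGF and PDGF genes 8 of 22 tested rose and 6 fell. IGFBP5, a secreted IGF binding protein, rose from 19.5 and 15.7 CPM in WT to 331 and 322 CPM in DKO (log2 fold change 4.21 ± 0.09 (SE), edgeR adjusted p = 7.78e-20).

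**Figure D2:**
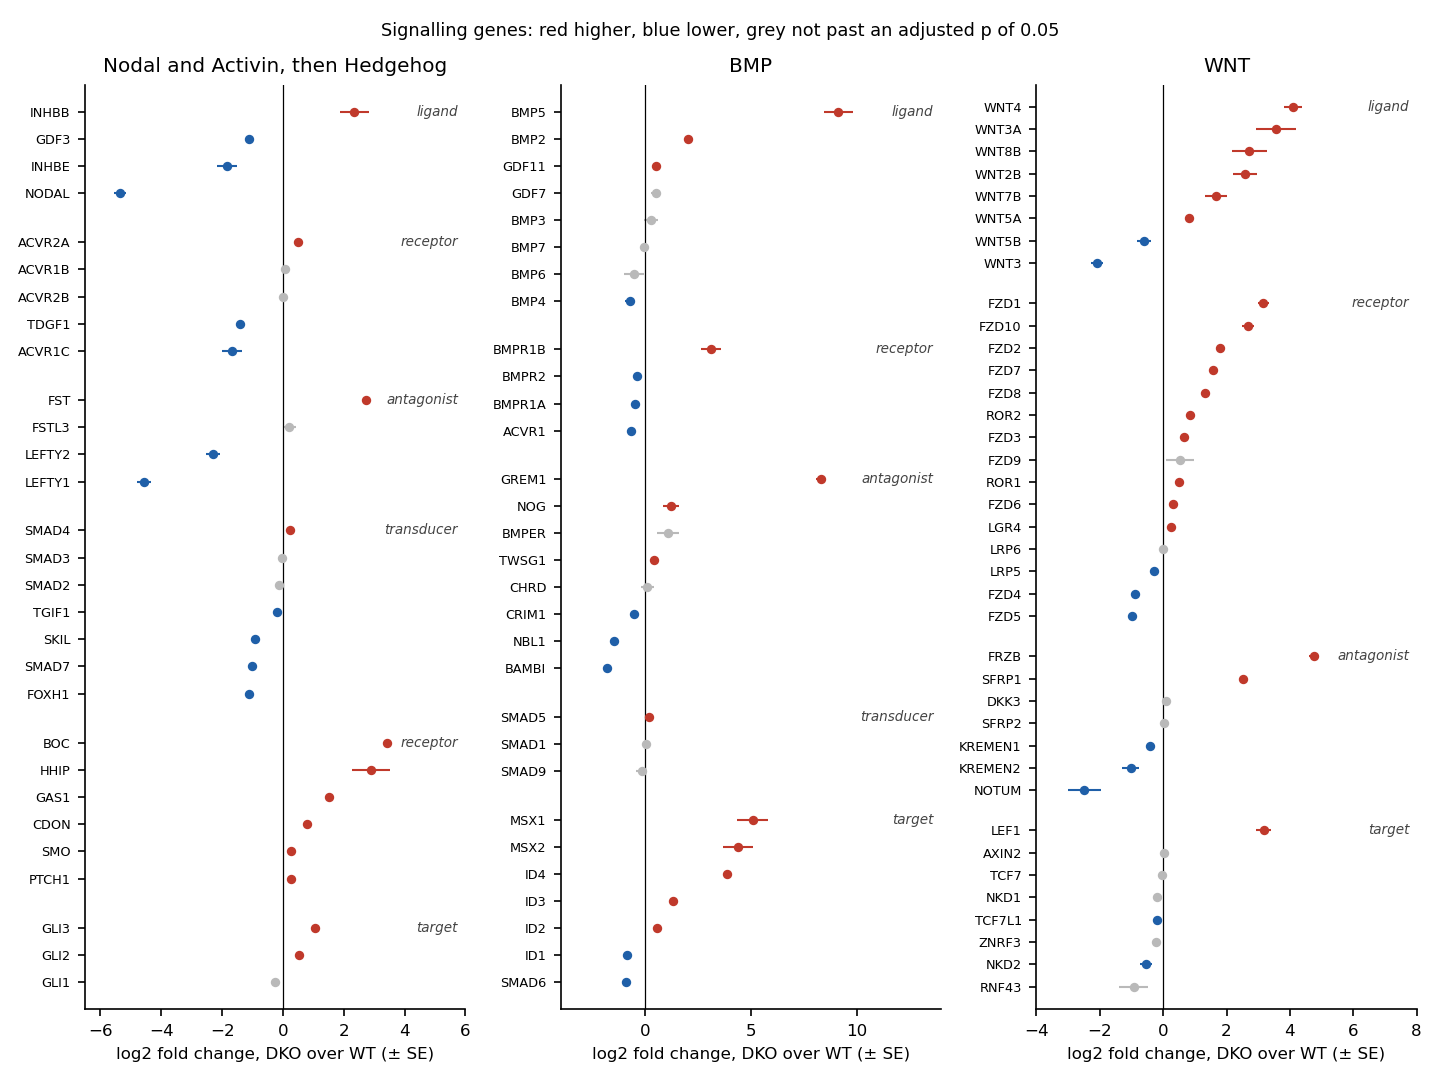
Log2 fold change of DKO against WT for the tested genes of the Nodal, Activin and Hedgehog lists, the BMP list and the WNT list, grouped by role, with bars for the standard error from 2 libraries per group; red points are higher, blue lower, and grey did not pass the test. NODAL and LEFTY1 lie furthest to the left at -5.36 and -4.57, and BMP5 and GREM1 furthest to the right; the value of BMP5, with 0 counts in WT, depends on the prior count of the fit.

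Neural progenitor genes rose together, 20 of 25 tested, 13 of them by at least 2-fold, with 2 falls and a median log2 fold change of 1.09. SOX1, an early marker of the neural plate, rose from 0.728 and 1.21 CPM in WT to 54.9 and 58 CPM in DKO. Both DKO libraries were far above every library of the other 4 groups, where SOX1 reached at most 1.21 CPM (log2 fold change 5.74 ± 0.18 (SE), edgeR adjusted p = 1.61e-16). FABP7, a lipid-binding protein of radial glia, rose from 1.31 and 1.21 CPM in WT to 33.2 and 35.1 CPM in DKO (log2 fold change 4.73 ± 0.20 (SE), edgeR adjusted p = 1.10e-14). VIM and CDH2, the filament protein and the cadherin of neural and mesenchymal cells, rose from 45.7 and 45.9 CPM in WT to 220.3 and 226 CPM in DKO and from 94.1 and 89.7 CPM in WT to 279 and 280.1 CPM in DKO. NCAM1, a neural adhesion molecule, rose from 8.74 and 10.6 CPM in WT to 71.6 and 64.8 CPM in DKO. POU3F2, a neural POU factor, rose from 0.437 and 0.093 CPM in WT to 11.2 and 10.1 CPM in DKO, and ZNF521, which drives the entry into the neural fate, rose from 21.6 and 23.5 CPM in WT to 90.5 and 95.2 CPM in DKO. PAX6, the other early neural marker, was not among the risers: it had 2.04 and 1.58 CPM in WT and 0.763 and 0.871 CPM in DKO, a fall whose call (log2 fold change -1.13 ± 0.45 (SE), edgeR adjusted p = 0.043) was lost whichever library was left out. That made it 1 of the 2 falls, the other being PROM1, and 0 or 1 fall passed in those fits. NES did not pass at 0.13 ± 0.07. ZIC1 rose from 58.1 and 49.9 CPM in WT to 216 and 228 CPM in DKO, but UTYKO_ctrl had only 6.45 and 5.46 CPM of it.

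Of the regional brain factors, 10 of 11 tested genes of the forebrain and eye list, which names 21, rose and 1 fell. Members near 0 in WT, such as VAX1 and LHX2, could be tested only through their DKO libraries. The share of rises in such a list is therefore partly set by which genes could be tested. VAX1, a factor of the ventral forebrain and optic stalk, was at 0 counts in WT and at 13.9 and 16.9 CPM in DKO, at least 90.1-fold higher over the floor of 3 counts. SIX3, which patterns the anterior forebrain, rose from 39.8 and 37.5 CPM in WT to 87.7 and 88.9 CPM in DKO, and LHX2 rose from 0.146 and 0.372 CPM in WT to 6.43 and 3.73 CPM in DKO. In the midbrain, hindbrain and cord list 12 of 17 tested genes rose and 3 fell, with the same limit for EN2 and PAX8. EN2, of the midbrain-hindbrain boundary, rose from 0.146 and 0.093 CPM in WT to 10.8 and 10.8 CPM in DKO; PAX8, of the same boundary, rose from 0.146 and 0.093 CPM in WT to 26.4 and 21.3 CPM in DKO (log2 fold change 7.52 ± 0.36 (SE), edgeR adjusted p = 1.13e-13); and IRX5 rose from 0.874 and 0.93 CPM in WT to 14.5 and 14.6 CPM in DKO. GBX2, of the anterior hindbrain, rose from 28.7 and 24.6 CPM in WT to 74.6 and 85.1 CPM in DKO. DKO values were above WT values in both libraries for each of these genes.

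Of 30 tested neuronal genes 12 rose and 11 fell against WT. Against UTYKO_ctrl 15 rose and 5 fell (median 0.54), and 11 of the rises and 4 of the falls held against both controls. MAP2, the microtubule protein of dendrites, had the most marked rise, from 3.93 and 4.18 CPM in WT to 339 and 342 CPM in DKO (log2 fold change 6.35 ± 0.11 (SE), edgeR adjusted p = 7.73e-22). Other neuronal cytoskeleton genes went down, such as INA, from 114 and 118 CPM in WT to 62.4 and 63.4 CPM in DKO, and GAP43, from 26.6 and 28.6 CPM in WT to 8.17 and 10.3 CPM in DKO. INSM1, a factor of differentiating neurons, fell from 7.87 and 7.44 CPM in WT to 0.763 and 1.74 CPM in DKO. Of the markers of young neurons DCX rose from 7.72 and 9.49 CPM in WT to 12.4 and 14.1 CPM in DKO, a call lost without DKO replicate 2, and TUBB3 did not pass at -0.36 ± 0.43. Axon guidance genes rose more often, 25 of 39 tested against 7 falls (median 0.69). The largest rises were the netrin receptor UNC5C, from 2.04 and 0.744 CPM in WT to 57.4 and 58.1 CPM in DKO (log2 fold change 5.49 ± 0.19 (SE), edgeR adjusted p = 6.89e-16), and the semaphorin SEMA6D, from 2.33 and 2.6 CPM in WT to 55.5 and 60.7 CPM in DKO. The ephrin EFNB1 and the Eph receptor EPHA4 rose from 46 and 47.9 CPM in WT to 170.3 and 179.6 CPM in DKO and from 14.6 and 13.8 CPM in WT to 53.4 and 52.9 CPM in DKO, and SEMA3F and UNC5B fell from 64.1 and 65.7 CPM in WT to 32.4 and 27.2 CPM in DKO and from 114 and 113 CPM in WT to 62.3 and 59 CPM in DKO.

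Neural crest factors rose while most markers of crest derivatives did not. Of 14 tested factors 11 rose and 3 fell; of 6 markers 2 rose and 4 fell, with 1 rise left without WT replicate 1 or DKO replicate 1. Of all these, 12 rises and 3 falls held against both controls. PAX3, of the neural plate border, was at 0 counts in WT and at 8.06 and 10.8 CPM in DKO (at least 54.9-fold higher over the floor), and PAX7, its paralog, rose from 2.62 and 1.67 CPM in WT to 41 and 34.5 CPM in DKO (log2 fold change 4.17 ± 0.19 (SE), edgeR adjusted p = 6.20e-14). TFAP2B was at 0 counts in WT and at 11.1 and 8.96 CPM in DKO, at least 59.4-fold higher. PAX3 and TFAP2B could be tested only through their DKO libraries, so the share of rising factors is partly set by which genes could be tested. ETS1 fell from 122 and 124 CPM in WT to 20.9 and 21.6 CPM in DKO and the glial receptor ERBB3 from 162 and 170.5 CPM in WT to 94.9 and 95 CPM in DKO. SOX10, the defining factor of migrating crest, had 3.64 and 3.44 CPM in WT and 2.4 and 1.12 CPM in DKO, and its fall was lost without either WT library and without DKO replicate 2.

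**Figure D3:**
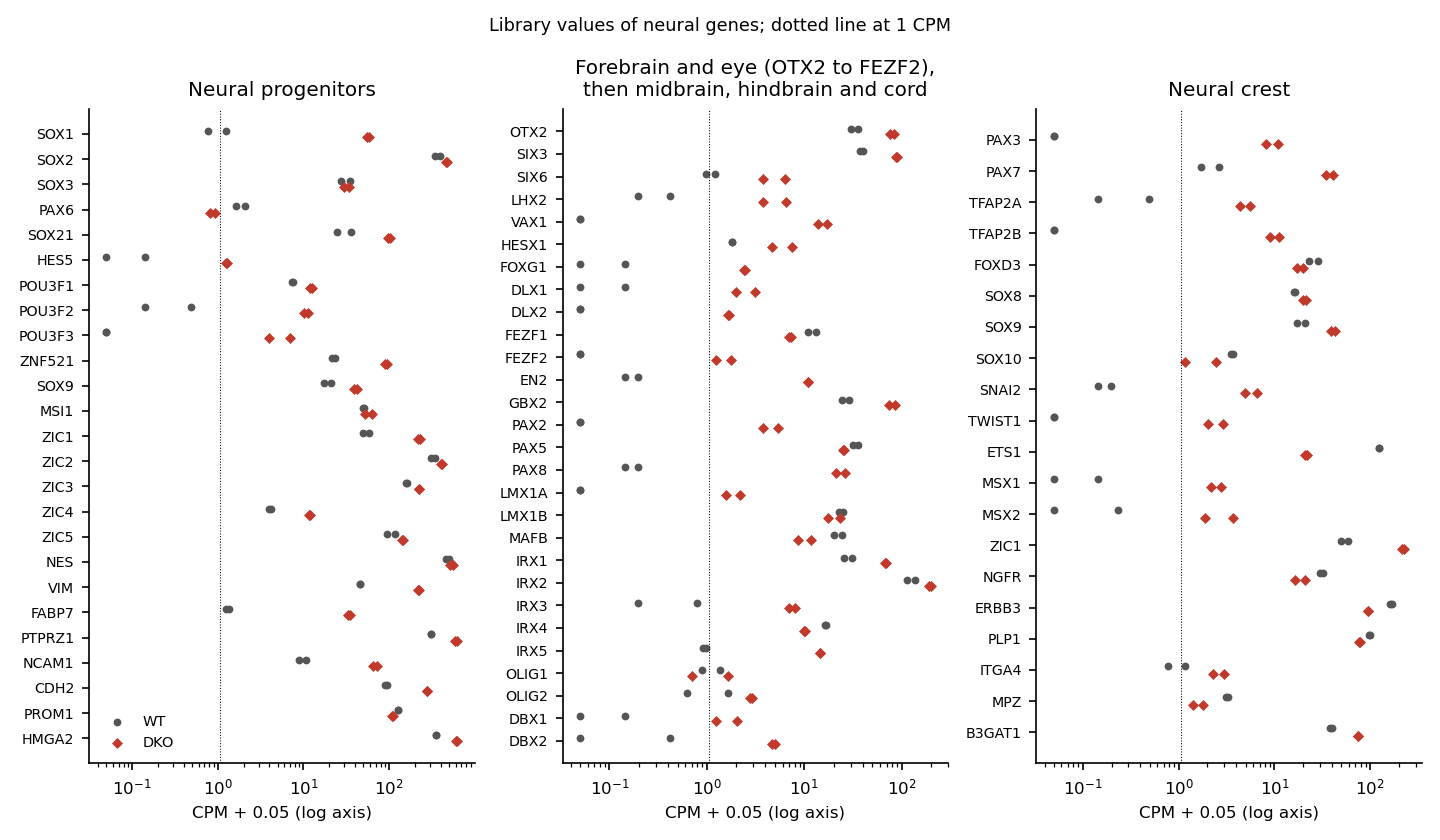
Level of selected neural progenitor, regional brain and neural crest genes in each of the 2 WT and 2 DKO libraries (CPM plus 0.05, log axis). For SOX1, VAX1, EN2, PAX3 and TFAP2B the DKO libraries lie well above the WT libraries, and for ETS1 they lie below.

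Epithelial genes fell together. None of the 28 tested genes of the junction list rose and 23 fell, 17 of them by at least 2-fold, with a median log2 fold change of -1.08; 21 also fell against UTYKO_ctrl, and 22 to 24 fell whichever library was left out. CDH1, E-cadherin (chr16:68737225-68835548), went from 652 and 634 CPM in WT to 279 and 282 CPM in DKO, and EPCAM, an epithelial adhesion molecule, from 291 and 297 CPM in WT to 145 and 153 CPM in DKO. The WT and DKO libraries were well apart for both (-1.22 ± 0.06 for CDH1, edgeR adjusted p = 3.00e-13; -1.01 ± 0.06 for EPCAM, edgeR adjusted p = 1.64e-11). P-cadherin, CDH3, fell from 270.2 and 299 CPM in WT to 114 and 107 CPM in DKO. Of the tight junction claudins, CLDN4 fell from 31.6 and 37.4 CPM in WT to 5.01 and 3.73 CPM in DKO (edgeR adjusted p = 1.19e-12) and CLDN7 from 90.7 and 104 CPM in WT to 31.6 and 37.9 CPM in DKO. The epithelial splicing regulators ESRP1 and ESRP2 fell from 314 and 314 CPM in WT to 159 and 158 CPM in DKO and from 62.6 and 66.1 CPM in WT to 33.8 and 28.5 CPM in DKO. ST14, a membrane protease, AP1M2, the epithelial clathrin adaptor, and CRB3, of the apical polarity complex, fell from 128 and 126 CPM in WT to 50.8 and 49.4 CPM in DKO, from 142 and 142 CPM in WT to 52.1 and 51.5 CPM in DKO and from 11.2 and 10.9 CPM in WT to 5.67 and 4.85 CPM in DKO. The scaffold TJP1 and the tight junction protein OCLN were not among the fallers, at -0.03 ± 0.06 and -0.06 ± 0.12. In the surface ectoderm list 9 of 14 tested genes fell and 2 rose, with 1 rise left without WT replicate 1 or DKO replicate 1. Its epithelial factors GRHL2 and OVOL2 fell from 61.5 and 65.9 CPM in WT to 32.4 and 33.8 CPM in DKO and from 13.7 and 12.6 CPM in WT to 4.36 and 4.23 CPM in DKO, and the simple keratins KRT8 and KRT18 fell with log2 fold changes of -0.98 ± 0.07 and -1.08 ± 0.08.

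Repressors of epithelial genes rose in DKO. Of 8 tested factors of the epithelial-to-mesenchymal transition list 6 rose and 1 fell, and of 9 mesenchymal genes 6 rose and 2 fell. ZEB2, ZEB1, SNAI2 and TWIST1 were near 0 in WT and could be tested only through their DKO libraries. The share of rising factors is therefore partly set by which genes could be tested. ZEB2 had 0 counts in both WT libraries and 49.6 and 49.1 CPM in DKO, at least 290.0-fold higher over the floor of 3 counts, against 0.86 and 0.635 CPM in UTXKO and 0.968 and 0.41 CPM in UTYKO_ctrl. ZEB1, its paralog, rose from 0.583 and 0.372 CPM in WT to 19.3 and 22 CPM in DKO (log2 fold change 5.43 ± 0.28 (SE), edgeR adjusted p = 5.59e-13). SNAI2 rose from 0.146 and 0.093 CPM in WT to 4.9 and 6.47 CPM in DKO, TWIST1 went from 0 counts to 1.96 and 2.86 CPM (at least 14-fold higher over the floor), and SNAI1 did not pass at -0.31 ± 0.19. Among mesenchymal genes TNC, a matrix glycoprotein, rose from 7.72 and 7.44 CPM in WT to 68.5 and 70.03 CPM in DKO and CDH11, a mesenchymal cadherin, from 28.8 and 25.5 CPM in WT to 126 and 128 CPM in DKO. FN1 and SPARC, usually counted with them, fell from 526 and 569 CPM in WT to 248 and 224 CPM in DKO and from 426 and 422 CPM in WT to 285 and 290.2 CPM in DKO.

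ZEB and SNAI proteins bind the E-box CACCTG, which reads CAGGTG on the other strand. RefSeq promoter windows (GRCh38.p14; 250 bases before to 50 after the start) were searched for it on both strands, and 7231 of 35116 windows (20.6%) held it. Only 16 of the 28 junction genes had a window, under the 80% needed to compare the list with other genes, so its count, 12 of 24 windows, is given as a description. The 250 bases before the start of 3 falling genes are shown because they hold the motif several times; capitals mark CACCTG or CAGGTG, and each is read 5′ to 3′ on the strand of the gene.
CLDN7 (chr17:7262479-7262728, minus strand): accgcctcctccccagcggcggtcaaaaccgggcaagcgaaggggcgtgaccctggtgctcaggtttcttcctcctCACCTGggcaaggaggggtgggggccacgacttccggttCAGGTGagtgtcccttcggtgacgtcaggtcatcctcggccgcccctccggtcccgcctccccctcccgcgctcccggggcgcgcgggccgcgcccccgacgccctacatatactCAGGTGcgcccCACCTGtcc
CRB3 (chr19:6464021-6464270, plus strand): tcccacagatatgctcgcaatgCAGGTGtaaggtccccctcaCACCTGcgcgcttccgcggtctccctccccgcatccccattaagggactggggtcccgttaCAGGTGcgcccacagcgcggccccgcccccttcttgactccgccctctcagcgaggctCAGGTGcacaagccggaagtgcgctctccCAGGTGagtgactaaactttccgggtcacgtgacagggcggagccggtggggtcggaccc
AP1M2 (chr19:10587313-10587562, minus strand): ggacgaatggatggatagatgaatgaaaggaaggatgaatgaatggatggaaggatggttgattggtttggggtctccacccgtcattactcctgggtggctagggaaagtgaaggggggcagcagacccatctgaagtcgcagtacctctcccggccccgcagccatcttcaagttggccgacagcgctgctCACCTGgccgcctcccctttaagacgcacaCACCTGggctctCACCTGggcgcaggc
The stretch of CLDN7 holds 4 matches, that of CRB3 5 and that of AP1M2 3, the nearest starting 9, 60 and 15 bases before the start. Of the 12 falling junction genes with a window, 9 hold the motif in at least 1 window, and CLDN4, CGN and MARVELD2 hold none. Of the 4 that did not pass, OCLN and TJP1 hold it, and CLDN10 and LSR do not.

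**Figure D4:**
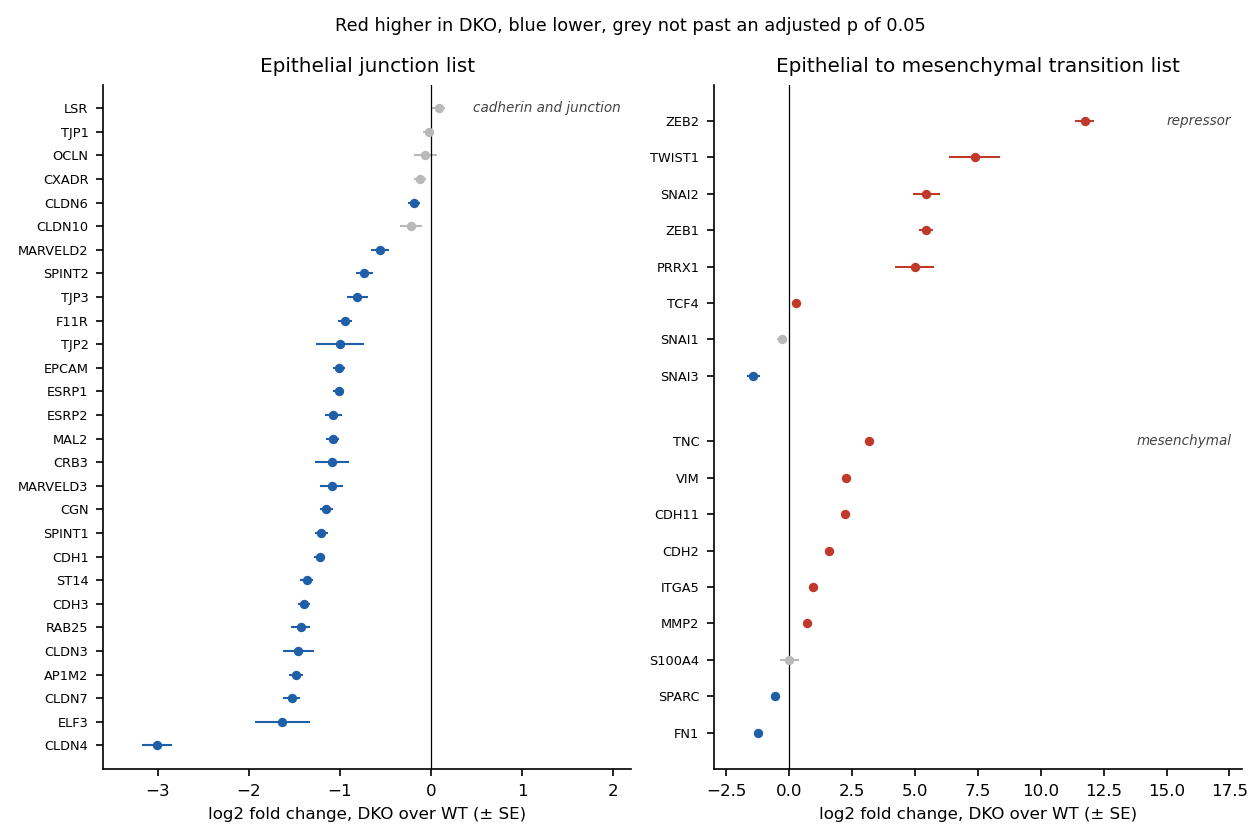
Log2 fold change of DKO against WT for the tested genes of the epithelial junction list and the epithelial-to-mesenchymal transition list, with bars for the standard error from 2 libraries per group and the same colours for higher, lower and not passed. No junction gene passes on the right of 0, and ZEB2, TWIST1, SNAI2 and ZEB1 lie furthest to the right; the values of ZEB2 and TWIST1, with 0 counts in WT, depend on the prior count of the fit.

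Collagens and proteoglycans rose and fell within the same list. Of 41 tested matrix and stroma genes 23 rose and 12 fell, and of 22 laminins and integrins 6 rose and 8 fell. COL2A1, the fibrillar collagen of cartilage and of early neuroepithelium, rose from 25.2 and 24.7 CPM in WT to 322 and 337 CPM in DKO (log2 fold change 3.70 ± 0.08 (SE), edgeR adjusted p = 7.78e-20). COL3A1 and LUM, of connective tissue, were at 0 counts in WT and at 19.5 and 20.6 and 19.4 and 24.5 CPM in DKO, at least 118-fold and 128-fold higher. FBN1, fibrillin, rose from 4.66 and 6.79 CPM in WT to 52.1 and 55.4 CPM in DKO and COL9A1 from 4.51 and 4.84 CPM in WT to 30.3 and 32 CPM in DKO. In contrast COL1A2 fell from 132 and 138 CPM in WT to 85.2 and 89.6 CPM in DKO and the membrane proteoglycan GPC6 from 91 and 87.1 CPM in WT to 33.7 and 32 CPM in DKO. Of the receptors for matrix, ITGB5 fell from 514 and 493 CPM in WT to 123 and 124 CPM in DKO (log2 fold change -2.05 ± 0.07 (SE), edgeR adjusted p = 1.36e-16) and ITGA3 from 40.6 and 39.8 CPM in WT to 17 and 16.9 CPM in DKO.

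Mesodermal and endodermal factors were low in both genotypes, and the few with enough counts moved in both directions. Only 4 of the 12 primitive streak genes could be tested and 3 fell, of which 1 fall held against both controls. TBX6, among the falls, was low throughout, at 1.89 and 2.14 CPM in WT and 0.763 and 0.995 CPM in DKO. TBXT and EOMES stayed near or under 1 CPM. LHX1, of the streak and organizer, fell from 23.3 and 15.5 CPM in WT to 1.09 and 0.995 CPM in DKO, but UTYKO_ctrl had 1.18 and 2.05 CPM, and the difference from that control did not pass. KDR, a receptor of early mesoderm, fell from 101 and 102 CPM in WT to 40.6 and 35.3 CPM in DKO. Some mesodermal factors went the other way. MEIS2 rose from 0.291 and 0.279 CPM in WT to 29.3 and 27.6 CPM in DKO, and TAL1, a blood and endothelial factor, rose from 2.48 and 1.58 CPM in WT to 41.8 and 42.4 CPM in DKO (log2 fold change 4.41 ± 0.18 (SE), edgeR adjusted p = 5.39e-15). The blood and endothelium markers summed to 2.77 and 1.67 CPM in WT and 43.3 and 43.8 CPM in DKO, almost all of it TAL1: PECAM1 and CDH5 stayed under 1 CPM and SPI1 was at 0 in DKO. Of the 39 HOX genes 3 could be tested and all 3 fell, HOXB2 from 3.5 and 3.53 CPM in WT to 0.109 and 0.124 CPM in DKO. HOXB2 could be tested only through its WT libraries. Of 7 tested germline genes 4 fell and 1 rose; PIWIL2, of the piRNA pathway, fell from 8.74 and 10.1 CPM in WT to 0.327 and 0.373 CPM in DKO. Among imprinted genes NNAT went from 33.6 and 41.1 CPM in WT to 1.31 and 0.373 CPM in DKO, and UTXKO had 0.573 and 0.635 CPM.

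Of 29 tested glycolysis and hypoxia genes 24 fell and none rose against WT (median -0.62). Against UTYKO_ctrl, where 15.3% of all tested genes were lower in DKO against 23.4% with WT, 11 fell and 2 rose, and 11 falls held against both controls. PFKP, which commits glucose to glycolysis, fell against both controls: it had 149 and 148 CPM in WT, 127 and 169 CPM in UTYKO_ctrl and 63.5 and 61.3 CPM in DKO. BNIP3, a hypoxia target, fell against WT but not against UTYKO_ctrl: it had 172 and 149 CPM in WT, 51.8 and 41.7 CPM in UTYKO_ctrl and 63 and 55.4 CPM in DKO. Of 21 tested subunits of oxidative phosphorylation 16 fell against WT, and 4 of them fell against both controls. Of 20 tested genes of cholesterol synthesis 16 rose against WT, such as HMGCS1 (from 331 and 340.3 CPM in WT to 651 and 669.9 CPM in DKO), and 8 of them rose against both controls, while 2 fell against UTYKO_ctrl. Without DKO replicate 1 the falls in oxidative phosphorylation numbered 8. In the serine, one-carbon and ATF4 list 14 of 19 fell against WT and 11 against both controls; the amino acid transporter SLC7A5 fell from 306 and 349.9 CPM in WT to 122 and 134 CPM in DKO with 508 and 686 CPM in UTYKO_ctrl.

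Of 22 tested p53 targets 13 fell and 2 rose, with 1 rise left without WT replicate 1 or DKO replicate 2, and 5 fell against UTYKO_ctrl. Against that control 3 of the 22 rose, where 15.5% of all tested genes were higher in DKO and 15.3% lower. PHLDA3, which restrains AKT, fell from 18.9 and 18.5 CPM in WT to 5.99 and 5.22 CPM in DKO with 12.2 and 15.7 CPM in UTYKO_ctrl. CDKN1A, the p21 cell cycle inhibitor, fell from 17.3 and 20.7 CPM in WT to 6.54 and 5.35 CPM in DKO, and its 6.56 and 10.6 CPM in UTYKO_ctrl did not differ from DKO past the threshold. Of 14 replication genes 11 rose and 1 fell, with 8 rises without DKO replicate 1 and 7 without DKO replicate 2; 2 of the rises held against both controls. Of 14 mitosis genes 8 fell and 1 rose, with 5 falls without DKO replicate 2, and 1 of the falls held against both controls. The changes were small, as in TYMS, which rose from 35 and 33.4 CPM in WT to 55 and 55.6 CPM in DKO, and BUB1B, which fell from 295 and 295 CPM in WT to 211 and 198 CPM in DKO. Against UTYKO_ctrl 9 genes of the whole cell cycle list rose and 7 fell. CCND2, a D-type cyclin, fell from 213 and 222 CPM in WT to 79.9 and 85.8 CPM in DKO, MYC fell from 101 and 82.9 CPM in WT to 50.9 and 49 CPM in DKO and MYCN rose from 75.2 and 65 CPM in WT to 119 and 119.5 CPM in DKO. In the MHC class I and interferon list 11 of 17 fell and 1 rose, a rise lost without WT replicate 1 or DKO replicate 1, with 6 falls against UTYKO_ctrl. IFITM1, a membrane protein abundant in stem cells, fell from 163 and 182 CPM in WT to 54.9 and 51.7 CPM in DKO (log2 fold change -1.72 ± 0.08 (SE), edgeR adjusted p = 4.51e-14), and HLA-C, a highly polymorphic gene whose reads can be split with its relatives, fell from 63.6 and 70.6 CPM in WT to 38.9 and 31.7 CPM in DKO. SMARCA2, an ATPase of the BAF remodelling complex, fell from 50.2 and 49 CPM in WT to 10.5 and 9.7 CPM in DKO (log2 fold change -2.32 ± 0.12 (SE), edgeR adjusted p = 2.77e-13).

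The largest single changes lay partly outside these lists. PRTG, protogenin, an adhesion protein of the early neural tube, rose from 13.7 and 13 CPM in WT to 640.1 and 607 CPM in DKO, and GREB1L, known for its need in kidney development, rose from 0.437 and 0.093 CPM in WT to 193 and 181 CPM in DKO. There were 12 genes with 0 counts in both WT libraries and at least 5 CPM in DKO, among them MMRN1 (14.7 and 15.9 CPM), LIX1 (13.3 and 15.2 CPM) and CDH10 (17.1 and 15.1 CPM), and 2 with the reverse pattern, JRK (28.7 and 34.3 CPM in WT) and MYH14 (19.2 and 21 CPM in WT). JRK was also at 0 and 0 CPM in UTXKO, and MYH14 was at 0 and 0.159 CPM in UTXKO and 0 and 0.171 CPM in UTYKO. By class, 120 of 421 tested lincRNA genes (28.5%) changed by at least 2-fold, 48 up and 72 down, against 11.7% of protein-coding genes. The 2-fold risers among protein-coding genes had a median genomic span of 54191 bp, the fallers 32200 bp and the genes not called 32900.5 bp. The median log2 fold change per autosome lay between -0.08 on chromosome 18 and 0.06 on chromosome 13, with 0.05 on X.

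DKO was next compared with UTXKO. By their labels they differ in the UTY knockout, but how DKO was derived is not given. The loss of UTY and other differences between the lines or clones therefore cannot be told apart. Both knockouts are measured against the same WT libraries, so the 2 were tested directly. Of 14482 genes 5052 (34.9%) differed, 2647 higher in DKO (18.3%) and 2405 lower (16.6%). NODAL had 55.6 and 57.5 CPM in UTXKO, as in WT, and DKO was lower (log2 difference -5.33 ± 0.19, edgeR adjusted p = 7.88e-18). SOX1 was higher in DKO (6.70 ± 0.24, edgeR adjusted p = 8.85e-18), with 0.287 and 0.794 CPM in UTXKO. MAP2 stood at 15.5 and 14.1 CPM in UTXKO and was higher in DKO (4.52 ± 0.09, edgeR adjusted p = 3.79e-23). In the epithelial junction list 20 of 28 genes were lower in DKO than in UTXKO and none higher; in the transition list 13 of 17 were higher and 3 lower; in the neural progenitor list 21 of 24 were higher and 1 lower. Other changes were already present in UTXKO. ZFP42, NNAT and JRK were near 0 there, and the differences of ZFP42 (1.45 ± 1.34, edgeR adjusted p = 0.43) and NNAT (0.52 ± 0.66, edgeR adjusted p = 0.58) did not pass. HMGCS1 stood at 577 and 585 CPM in UTXKO, most of the way to its DKO level, and 4 of 20 cholesterol synthesis genes differed between the knockouts.

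The DKO effect was also set against the sum of the single effects on the log2 scale, with UTYKO measured against its own control. It departed from that sum for 1885 of 15191 genes (12.4%), 1024 above (6.74%) and 861 below (5.67%). The count depended on the control libraries: it was 4024 without UTYKO_ctrl replicate 1, 2918 without UTYKO_ctrl replicate 2, 2859 with WT in place of UTYKO_ctrl, and 1146 to 1367 without 1 of the DKO, UTXKO or UTYKO libraries. NODAL changed by -0.01 ± 0.10 in UTXKO and by 0.66 ± 0.17 in UTYKO, and the DKO effect lay -5.99 ± 0.27 from their sum (edgeR adjusted p = 9.81e-13). LEFTY1 (-5.18 ± 0.30) and MIXL1 (-4.20 ± 0.36) also lay far below the sum. GREM1 (9.40 ± 0.73), SOX1 (7.45 ± 0.78), COL2A1 (5.08 ± 0.19) and MAP2 (3.59 ± 0.22) lay above it. By list, 13 of 28 epithelial junction genes were below the sum and none above, 15 of 25 neural progenitor genes were above and 1 below, and 8 of 21 Nodal and Activin genes were below and 1 above. Of the 3 KDM6 genes none departed from it, nor did ZFP42, NNAT and HMGCS1.

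**Figure D5:**
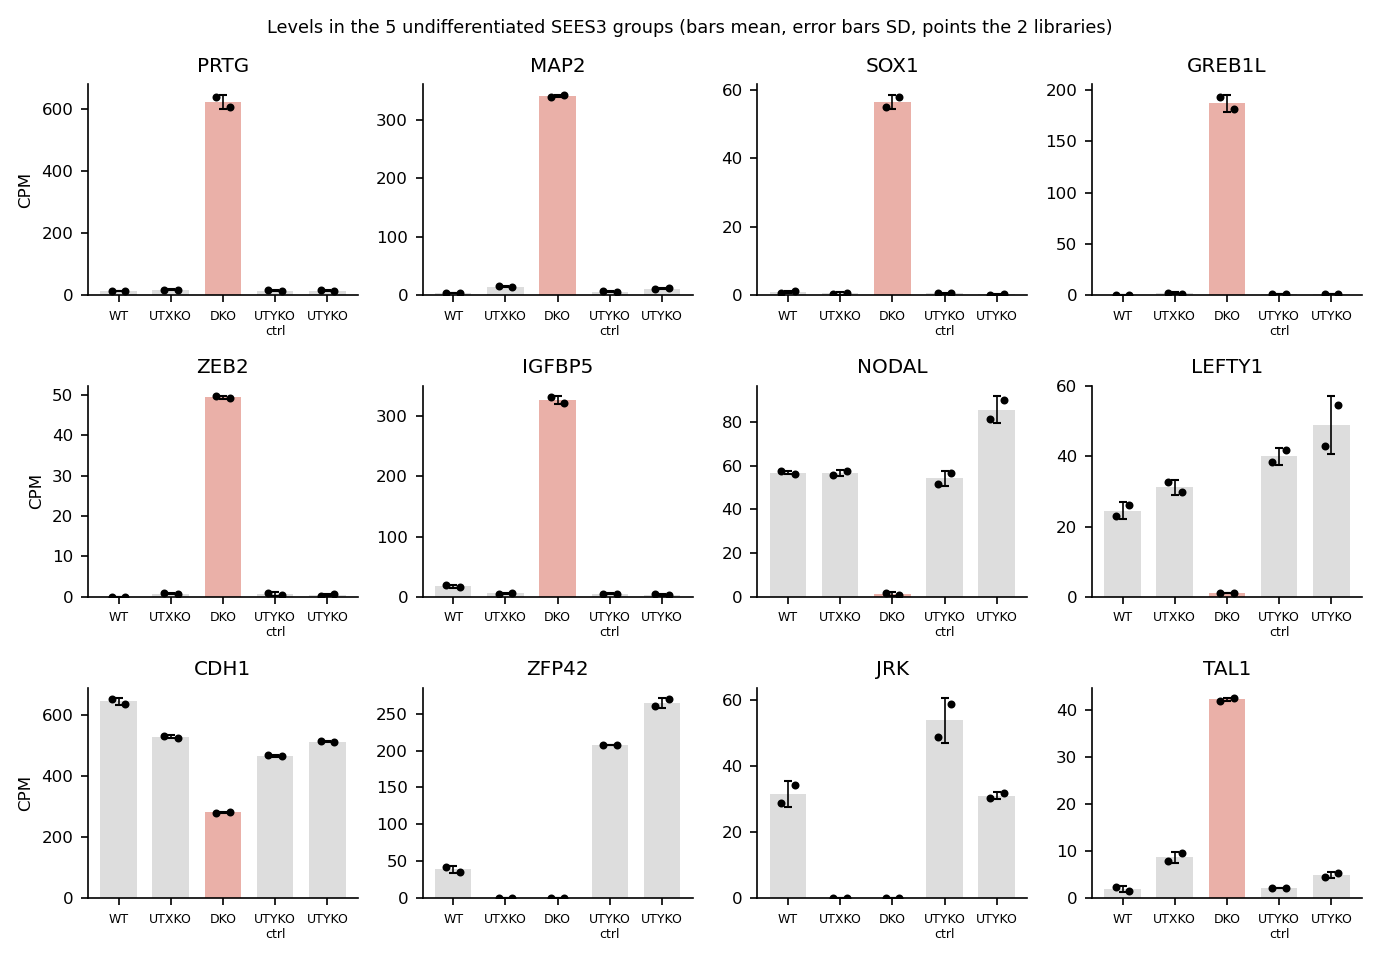
Levels of 12 genes in the 5 undifferentiated SEES3 groups (bars, mean CPM of 2 libraries; whiskers, SD; points, libraries). The DKO libraries of NODAL, LEFTY1, SOX1, ZEB2 and GREB1L lie outside the range of the other 4 groups, and ZFP42 and JRK are near 0 in both UTXKO and DKO.

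The same genotypes were then read in the germ layer cultures, whose values were deposited as TPM (transcript levels scaled to a fixed total) and tested with limma on log2(TPM + 1), a scale that understates changes of low genes. In Endo 1896 of 15660 genes (12.1%) differed between DKO and WT, 1098 higher (7.01%) and 798 lower (5.1%). In Meso 1523 of 15125 (10.1%) differed, 963 higher (6.37%) and 560 lower (3.7%), and in Ecto 1240 of 15433 (8.03%), 645 higher (4.18%) and 595 lower (3.86%). The median log2 difference over all genes was 0.12 in Endo and 0.21 in Meso. These counts rest on each library: leaving out 1 brought them to 691 to 951 in Endo, 290 to 564 in Meso and 467 to 570 in Ecto. The balance of directions turned without a DKO library. Without either DKO library in turn there were 296 higher and 395 lower, or 279 and 432, in Endo, 128 and 225, or 116 and 174, in Meso, and 177 and 330, or 190 and 277, in Ecto. Of the genes that rose at least 2-fold in undifferentiated DKO cells, 265 of 792 tested rose in Endo and 12 fell, 193 of 730 rose in Meso and 16 fell, and 148 of 837 rose in Ecto and 70 fell. Of those that fell, 241 of 787 fell in Endo and 17 rose, 83 of 615 fell in Meso and 36 rose, and 45 of 610 fell in Ecto and 28 rose.

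In Endo cultures the junction genes fell as in undifferentiated cells. CDH1 had 373 and 388 TPM in WT and 1.92 and 4.05 TPM in DKO, a log2(TPM + 1) difference of -6.63 ± 0.26 (limma adjusted p = 1.96e-05). CLDN7 had 193 and 157 TPM in WT and was listed at 0 in both DKO libraries. In all, 22 of 27 tested junction genes fell in Endo and none rose, and 16 to 18 fell when 1 library was left out. In Ecto 11 of 25 fell, 6 to 8 without 1 library, and in Meso 2 of 20 fell and 3 rose. In the Nodal and Activin list 6 of 18 tested genes fell in Endo and 1 rose (median log2(TPM + 1) difference -0.15), the same numbers whichever library was left out. NODAL went from 434 and 438 TPM to 39.1 and 28.3 TPM and LEFTY1 from 1091 and 1038 to 80.03 and 57.2 TPM (limma adjusted p = 2.18e-05 and 1.96e-05), and FST was the gene of the list that rose (3.46 ± 0.15, limma adjusted p = 2.35e-05). Of 25 tested neural progenitor genes 17 rose and none fell, with 10 rises without either DKO library. SOX1 stood at 0 and 1.08 TPM in WT and 236 and 252 TPM in DKO, and EN2 at 0 and 0 and 329 and 387 TPM. In the definitive endoderm list 5 of 12 tested genes fell and none rose, with 1 or 2 falls when 1 library was left out. SOX17, an endoderm factor, fell from 913 and 881 TPM in WT to 615 and 689.6 TPM in DKO (-0.46 ± 0.09, limma adjusted p = 0.019). In the primitive streak list 7 of 10 tested genes fell and none rose, with 5 to 6 falls without 1 library. MIXL1 fell from 2352 and 2310.0 to 598 and 706 TPM.

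In Meso cultures 12 of 23 neural progenitor genes and 17 of 33 neuronal genes rose, with no falls. Leaving out 1 library brought these rises to 5 to 9 and 7 to 10. MAP2 was listed at 0 in both WT libraries and had 143 and 142 TPM in DKO, and EN2 went from 10.1 and 3.36 to 292 and 296 TPM. HAND1, a lateral mesoderm factor, fell from 369 and 326 to 115 and 97.8 TPM (-1.70 ± 0.18, limma adjusted p = 0.0021), and 14 of 31 tested HOX genes fell while 2 rose, with 4 to 5 falls without 1 library. In Ecto cultures 7 of 25 neural progenitor genes rose and 7 fell, with 5 rises and 2 to 3 falls without 1 library. SOX1 was already at 85.9 and 64.9 TPM in WT there and rose to 436 and 361 TPM. MAP2 had 298 and 268 TPM in WT and 296 and 332 TPM in DKO there and did not pass (0.15 ± 0.14, limma adjusted p = 0.55). Several genes that rose in undifferentiated DKO cells fell in a layer. SFRP1 fell from 1804 and 1891 to 487 and 446 TPM in Ecto (-1.99 ± 0.11, limma adjusted p = 6.20e-05), and FRZB from 538 and 468 to 82.2 and 76.2 TPM (-2.65 ± 0.13, limma adjusted p = 5.31e-05). GREM1 went from 12.8 and 13 to 1.63 and 1.84 TPM, FST from 104 and 88.6 to 38.5 and 41.5 TPM and TAL1 from 8.33 and 6.49 to 0.845 and 0.954 TPM in Ecto (limma adjusted p = 0.0026, 0.04 and 0.035). COL2A1 went from 188 and 154 to 91.7 and 66 TPM and COL3A1 from 26.3 and 31.5 to 12.2 and 6.16 TPM in Meso (limma adjusted p = 0.048 and 0.03).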

How the data were processed

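Gene counts of WT, UTXKO and DKO, and of UTYKO_ctrl and UTYKO, were deposited by the authors as raw counts per gene; germ layer values were deposited by the authors as TPM. The submitters' processing notes name STAR, RSEM, featureCounts and edgeR and the build GRCh38 (hg38), with no versions, and which tool made which table is not given in the sources used here. Positions were taken from GENCODE release 29. A further deposited table of 18 columns was not used here. The members and gene lists were chosen with earlier results of these data known.

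Counts were filtered with filterByExpr, scaled by TMM and tested with edgeR 4.0.16 (quasi-likelihood) in R 4.3.3. DKO against WT was fitted with its own libraries alone, and DKO against UTYKO_ctrl with all 10 undifferentiated libraries. DESeq2 1.42.0 was an alternative. Adjusted p-values are Benjamini-Hochberg values over all genes tested, with a threshold of 0.05. Printed CPM use 1 TMM scaling over the 10 undifferentiated libraries, and SE is the absolute log2 fold change over the root of F. For the layers, log2(TPM + 1) of genes reaching 1 TPM in 2 libraries or more entered limma 3.58.1 with a mean-dependent prior variance. Simulated counts with known changes were tested first. Layer columns carry no replicate numbers. Same-numbered WT and DKO libraries did not deviate together (r = 0.00464 across genes, which are not independent), so no pairing was used. Folds over a group at 0 use a floor of 3 counts over that group and cover counting error only.

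Genes were named by rule: the KDM6 genes, the 12 largest rises and falls among called genes of at least 5 CPM, the 8 largest gains and losses in CPM, genes at 0 counts in 1 group and at least 5 CPM in the other, and up to 4 called members of each role of each list (2 where none was called). The text gives a selection, plus other members of the roles it describes. Some genes that this rule takes are not reported here.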

Additional observations from a re-analysis of the deposited data

Results flagged for a closer look

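Some genes that rose in undifferentiated DKO cells (edgeR) fell in a germ layer culture (limma on log2(TPM + 1)). The difference between the settings was not tested, and the values are on different scales. In Ecto the DKO-minus-WT difference was -2.65 for FRZB, -2.35 for GREM1, -2.14 for TAL1, -1.99 for SFRP1 and -1.24 for FST. In Meso it was -1.62 for COL3A1 and -1.12 for COL2A1. The other layers did not all follow: FRZB, FST, COL2A1, COL3A1 and TAL1 rose in Endo.

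For 1885 genes the DKO effect differed, by a direct edgeR test, from the sum of the UTXKO and UTYKO effects; the UTYKO effect was measured against its own control.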

How the results depend on the processing

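For DKO against WT the count of 6866 called genes went to 3701 with DESeq2 and 763 in the test against a 2-fold change, and lay between 5192 and 6815 when 1 library was left out. Scaling by library totals alone gave 6939 genes, of which 57.3% were higher, against 3435 of 6866 with TMM, and moved the median log2 fold change of all genes to 0.06. For DKO against UTXKO the 5052 genes became 2786 with DESeq2 and 3468 to 4450 without 1 library. For the departure from the sum, 1885 became 2859 with WT in place of UTYKO_ctrl and 1146 to 4024 without 1 library. In the layers, leaving out 1 library gave 691 to 951 genes in Endo, 290 to 564 in Meso and 467 to 570 in Ecto, and a fit of the WT and DKO libraries alone gave 1862 in Endo, 2607 in Meso and 985 in Ecto. The cause was not tested. Of 164 named genes called against WT, 155 were called with DESeq2. Some of the 164 lost their call, or could not be tested, when 1 library was left out.

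With UTYKO_ctrl in place of WT, BNIP3 changed sign to 0.35, SMAD3 to 0.49 and LSR to -0.42. With WT in place of UTYKO_ctrl, the departure from the sum changed sign for BNIP3 (0.28), FN1 (0.31), KDR (0.071), LHX1 (1.77), UHRF1 (-0.51) and ZIC1 (1.40).

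With the replicate number as a block the counts were 7141 for DKO against WT, 5429 for DKO against UTXKO and 2160 for the departure from the sum; the pairing check gave correlations of 0.00464 for WT with DKO and 0.042 for UTXKO with DKO, and 163 of the 164 named genes were called with the block. No paired analysis was possible for the layers because their columns carry no replicate numbers. In simulated data the tests recovered 86.9% of genes changed 2-fold and 99% of those changed 4-fold for DKO against WT, 79.4% and 95.9% for DKO against UTXKO, and 49.5% and 85% for the departure from the sum. For the layers they recovered 31% and 77% in Endo, 17% and 62% in Meso and 23% and 68% in Ecto. The changed genes of the layers were drawn only from those above a minimum mean level, unlike those of the counts. Recovery of low genes in the layers was therefore not measured, and the shares cannot be compared with those for the counts. Genes near the floor of 3 counts, such as TWIST1, are limited by depth.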
